A study of Mus musculus with 29 samples.

Results

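Heat shock chaperone genes were followed here in mouse brain: Hspa1a, Hspa1b, Hspb1, Hspa5, Dnajb1, Dnajb5, Hspe1, Hspd1, Hspa8 and Hsp90aa1. They were chosen by gene symbol, as the probe sets whose platform annotation names 1 of these 10 genes, and this gave 23 of the 22626 probe sets tested and 10 of the 12393 genes with a symbol of their own. Hspa1a and Hspd1 had 1 probe set each, Hspa8 had 4, Hspa1b, Dnajb5 and Hsp90aa1 had 3, and Dnajb1, Hspe1, Hspa5 and Hspb1 had 2. Values are log2 hybridisation signals, so a difference of 1 is a doubling. Each gene is given by its brightest probe set, since probe sets of different genes differ in their own brightness and their levels cannot be set against each other. Signal over background could not be judged, because no detection calls were used.

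The study measured RNA of the prefrontal cortex (18 arrays) and the caudate-putamen (11 arrays) of 3 mouse strains, after the toxin MPTP or without it. TgS mice carry the human gene for the synaptic splice form of acetylcholinesterase (AChE-S), TgR mice carry the human readthrough form (AChE-R), and FVB/N is the parent strain of both. MPTP is turned by glia into a compound that enters dopamine neurons and blocks their mitochondria, and the caudate-putamen is where most of their axons end. Mice got 4 injections of 20 mg/kg at 2 h intervals, 80 mg/kg in all, with 6 mice per strain and treatment, and tissue was taken 4 days later. The groups were TgS, TgR and FVB/N after MPTP in the prefrontal cortex (2 arrays each), the same strains naive in the prefrontal cortex (4 arrays each), TgS (2 arrays), TgR (1 array) and FVB/N (2 arrays) after MPTP in the caudate-putamen, and the same strains naive there (2 arrays each). The promoter of the transgenes, the age and sex of the mice and the number of mice per array are not stated in the labels, which also do not say whether the naive arrays came from saline-injected mice. Nor do they say that replicate arrays came from separate animals, so the p-values measure the spread between these arrays, which may be technical. The second naive FVB/N array of the caudate-putamen has a description that calls it MPTP-exposed, against its title, source name and treatment label. It was used as naive, and the caudate-putamen response is also given without it.

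Array medians lay between 7.61 and 7.78. The arrays that stood apart, written here as the 6 early naive arrays, were naive prefrontal replicates 1 and 2 of all 3 strains. Early stands for the low replicate number, not for a known date. Their Xist signals were 8.62 to 10.61, against 6.78 to 7.24 on the other 23 arrays, and their Y-linked Eif2s3y signals 3.42 to 3.83, against 8.41 to 9.20. Xist is made from the inactive X chromosome of females and Eif2s3y lies on the Y chromosome, so these 6 arrays had the female pattern and the other 23 the male pattern. Their actin 5′ minus 3′ probe differences, a sign of RNA integrity, reached -2.30, against -1.41 at the lowest elsewhere. Gdpd3, which was at 9.76 to 10.37 on the other FVB/N arrays and at 5.34 to 6.40 on 9 of the 10 TgS arrays, read 5.70 and 5.63 on the early naive FVB/N arrays, so these libraries went against their strain label. On the second early TgS array Gdpd3 read 8.32, between these ranges. The 6 arrays were also not alike in the signal of the Dap control probe set. It was 3.98 to 4.40 on those of FVB/N and TgS, 8.27 and 8.52 on those of TgR, and 7.56 to 8.27 on the other 23. A term for the 2 sets of naive prefrontal arrays is in the model, and many but not all prefrontal results are also given without the 6 arrays. With the term, the naive prefrontal level is that of the early arrays: over the 3 strains it is the mean of replicates 1 and 2, and within a strain it is the mean of its 4 arrays moved by the common shift between the sets. Unless said otherwise, prefrontal MPTP differences and naive differences between regions are given at this early level, so they set arrays of the male pattern against a level taken from arrays of the female pattern. Without the 6 arrays the naive level is that of replicates 3 and 4, which have the male pattern. Sex, set and RNA integrity cannot be told apart in the early level. All 5 cortical neuron markers were higher and all 5 striatal neuron markers lower in the prefrontal cortex than in the caudate-putamen. The array means of the striatal markers were 8.58 to 10.29 in the prefrontal cortex and 12.13 to 12.55 in the caudate-putamen. In bulk tissue, fewer cells of a type and less RNA per cell cannot be told apart.

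Chaperones bind unfolded proteins and help them fold or be degraded. When misfolded protein builds up in the cytosol, the transcription factor HSF1 binds heat shock elements, repeats of the unit nGAAn in alternating orientation, and turns on the inducible Hsp70 genes Hspa1a and Hspa1b, the small heat shock protein gene Hspb1 (Hsp27, Hsp25 in mouse) and the J-domain gene Dnajb1. Hspa8 encodes an abundant cytosolic chaperone that neurons make at all times. Hsp90aa1 encodes a cytosolic Hsp90, and Hspd1 and Hspe1 encode the mitochondrial Hsp60 and its partner Hsp10. Hspa5 encodes BiP, the Hsp70 of the endoplasmic reticulum (ER), which is induced by the unfolded protein response through a different motif, the ER stress response element.

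Start-site windows of 8 of the 10 genes (12 entries, 250 bases before to 50 after the start, RefSeq on GRCm38.p6) were searched on both strands. The motifs were a heat shock element of 2 units (GAANNTTC or TTCNNGAA), one of 3 units (GAANNTTCNNGAA or TTCNNGAANNTTC, each of which holds 2-unit matches), and the ER stress response element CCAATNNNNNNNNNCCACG. The shares of all 32851 promoter windows with a match were 15.1% for 2 units, 0.603% for 3 units and 0.119% for the ER element. A 2-unit match was present in 5 of the 8 genes, and 3 genes had none: Dnajb1, Dnajb5 and Hspa5. The 4 windows below are shown because they carry the matches of the genes that the results turn on or, for Hspe1, the only 3-unit run besides its neighbour's, and the capitals mark the matches.
Hspa1b (chr17:34959189-34959488, minus strand): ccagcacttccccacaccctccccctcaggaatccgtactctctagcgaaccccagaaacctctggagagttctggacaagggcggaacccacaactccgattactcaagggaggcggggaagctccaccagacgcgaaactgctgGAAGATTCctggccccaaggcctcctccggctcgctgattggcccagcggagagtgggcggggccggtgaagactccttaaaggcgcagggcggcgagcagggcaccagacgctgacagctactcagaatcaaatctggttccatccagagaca
Hspb1 (chr5:135887669-135887968, plus strand): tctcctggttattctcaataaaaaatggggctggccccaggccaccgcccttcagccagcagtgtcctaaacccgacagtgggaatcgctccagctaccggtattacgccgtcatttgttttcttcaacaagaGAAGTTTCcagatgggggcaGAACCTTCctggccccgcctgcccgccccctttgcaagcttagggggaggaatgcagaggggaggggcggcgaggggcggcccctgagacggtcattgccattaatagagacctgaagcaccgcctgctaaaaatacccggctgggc
Hspe1 (chr1:55087898-55088197, plus strand): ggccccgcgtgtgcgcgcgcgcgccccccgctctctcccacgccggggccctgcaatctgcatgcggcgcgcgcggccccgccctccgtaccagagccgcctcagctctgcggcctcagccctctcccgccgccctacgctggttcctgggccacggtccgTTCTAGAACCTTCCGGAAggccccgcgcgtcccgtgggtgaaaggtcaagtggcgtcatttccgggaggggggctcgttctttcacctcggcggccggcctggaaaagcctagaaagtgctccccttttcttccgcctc
Hspa5 (chr2:34771840-34772139, plus strand): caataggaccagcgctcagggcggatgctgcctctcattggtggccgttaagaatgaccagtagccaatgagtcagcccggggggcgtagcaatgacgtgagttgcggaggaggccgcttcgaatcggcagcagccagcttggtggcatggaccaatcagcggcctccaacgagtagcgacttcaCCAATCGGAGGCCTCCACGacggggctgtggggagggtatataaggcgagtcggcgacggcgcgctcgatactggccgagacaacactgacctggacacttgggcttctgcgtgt
The Hspa1b match begins at position -104, counted back from the start site. The window of Hspa1a (chr17:34972107-34972406, minus strand) has its match at the same place and differs from that of Hspa1b at 4 of 300 bases. Signals of these near-identical genes may be shared between their probe sets, so a value given for either is uncertain as to which gene made it. Hspb1 has 2 matches, at -117 and -97. Hspe1 and Hspd1 are read in opposite directions from a shared start region, and a second Hspd1 entry (chr1:55087883-55088182, minus strand) shares 285 bases with the Hspe1 window, with the same matches on the other strand. The Hspa5 window has the ER element at -65. A match describes letters only and says nothing of binding.

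After MPTP, the chaperones that stood out in the caudate-putamen were Hspa1a, Hspa1b, Hspb1 and Hspa5, and they did so in FVB/N mice. These 4 of 10 genes rose in FVB/N caudate-putamen, where 0.265% of all probe sets changed. Since signals may be shared between Hspa1a and Hspa1b, these 2 may not be separate counts, here or in the counts below. None of the 10 passed the test in TgS caudate-putamen, where 1.41% of all probe sets changed, or in TgR caudate-putamen, where 0.11% did. At an unadjusted p under 0.05 the limma fit gave 2 of 10 in TgS and 0 in TgR, against 2479 and 952 of the 22626 probe sets. The median difference of the 10 genes was 0.17 in FVB/N, 0.09 in TgS and -0.04 in TgR, against 0.01 over all probe sets in FVB/N and TgS and 0.02 in TgR.

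Hspa1a and Hspa1b encode the stress-inducible cytosolic Hsp70. In the caudate-putamen of FVB/N mice, Hspa1a was at 8.37 and 8.55 after MPTP, against 7.30 and 6.51 in naive mice. TgS caudate-putamen had 7.45 and 7.33 after MPTP, against 7.34 and 6.92 naive. TgR caudate-putamen had 6.34 on its single MPTP array, against 6.39 and 6.25 naive. Both FVB/N MPTP arrays lay above every other caudate-putamen array, while the TgS groups overlapped and the TgR array lay between its naive arrays. The FVB/N mean of 8.46 ± 0.13 after MPTP stood 2.94-fold above the naive mean of 6.91 ± 0.56 (SD, n = 2 each). The difference was 1.55 ± 0.24 (log2 ± SE, adjusted p = 0.0054), against 0.26 ± 0.24 in TgS and 0.02 ± 0.29 in TgR. Over the 3 strains together Hspa1a rose by 0.61 ± 0.15, or 1.53-fold (adjusted p = 0.046). This call was made in 13 of 38 settings, the main fit among them, and lost in 22 of the 28 that left out 1 array.

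Hspa1b followed the same order. In FVB/N caudate-putamen it was at 10.36 and 10.49 after MPTP, against 9.63 and 9.40 in naive mice. TgS arrays read 9.78 and 9.85 after MPTP, against 9.63 and 9.31 naive, and the TgR MPTP array read 9.19, against 9.22 and 9.12 naive. The FVB/N arrays after MPTP were again the highest of the region, the TgS MPTP arrays lay above their naive arrays by a smaller step, and TgR did not separate. The rise was 0.91 ± 0.12 in FVB/N (1.88-fold, adjusted p = 0.0014), and the other 2 Hspa1b probe sets were called there too. The TgS difference was 0.34 ± 0.12 (adjusted p = 0.21) and the TgR difference 0.02 ± 0.15. Over the 3 strains Hspa1b rose by 0.42 ± 0.07, or 1.34-fold (adjusted p = 0.0051), so 2 of the 10 genes rose in the strain-averaged comparison, against 1.43% of all probe sets. These 2 are the pair whose signals may be shared. The Hspa1b call was made in 37 of 38 settings, the main fit among them.

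Hspb1 encodes a small heat shock protein that binds unfolding proteins without using ATP. It read 10.33 and 9.95 in FVB/N caudate-putamen after MPTP, against 9.02 and 9.26 in naive mice, 9.91 and 9.44 in TgS after MPTP, against 9.86 and 9.45 naive, and 9.13 in TgR after MPTP, against 9.19 and 9.26 naive. The MPTP arrays stood above the naive ones in FVB/N alone. Hspb1 rose 2.00-fold there (1.00 ± 0.21, adjusted p = 0.047), and its second probe set rose by 1.07. The TgS difference was 0.02 ± 0.21 and the TgR difference -0.10 ± 0.26. Hspb1 was the least stable of the 4 calls: it was called in 21 of 39 settings, the main fit among them, against 37 for Hspa1b, 36 for Hspa1a and 32 for Hspa5.

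**Figure D1:**
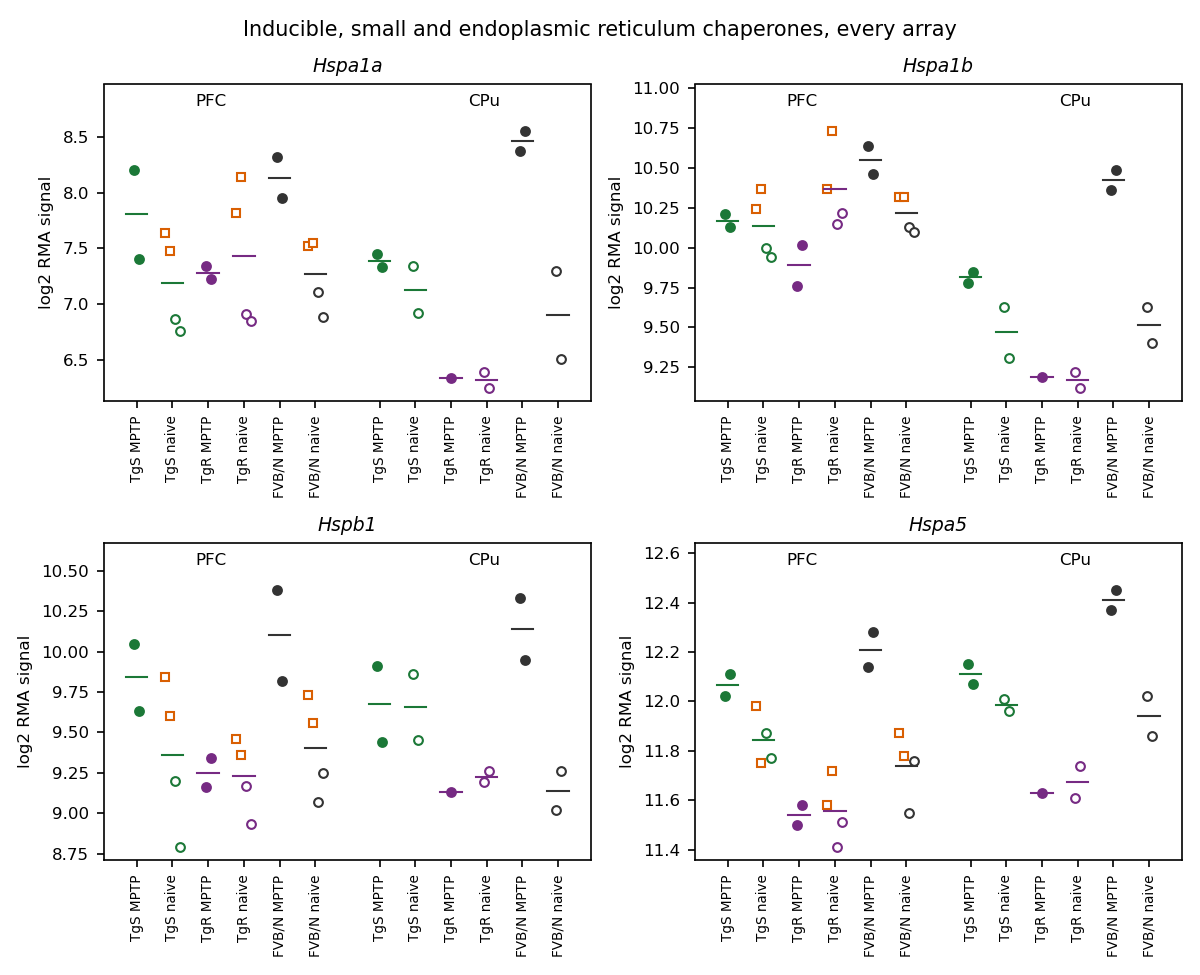
Log2 signal of Hspa1a, Hspa1b, Hspb1 and Hspa5 on every array, by region, strain and treatment; filled circles are MPTP arrays, open circles naive arrays, open squares the 6 early naive arrays, and bars group means. The FVB/N MPTP arrays of the caudate-putamen lie above the naive ones for all 4 genes, and the single TgR MPTP array lies at 6.34 for Hspa1a, near its naive arrays.

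Hspa5 (BiP) was at 12.37 and 12.45 in FVB/N caudate-putamen after MPTP, against 12.02 and 11.86 in naive mice. TgS arrays read 12.15 and 12.07 after MPTP, against 12.01 and 11.96 naive. The TgR array read 11.63 after MPTP, against 11.61 and 11.74 naive. The groups did not overlap in FVB/N and TgS, with the larger step in FVB/N, and the TgR array lay among its naive arrays. Hspa5 rose by 0.47 ± 0.09 in FVB/N (1.39-fold, adjusted p = 0.034). The second Hspa5 probe set differed by 0.46 with an adjusted p of 0.082. TgS differed by 0.12 ± 0.09 and TgR by -0.04 ± 0.11.

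The strain differences of these responses were tested directly. In the caudate-putamen no gene's response differed between strains after adjustment in the fit of all arrays, where 0.181% of all probe sets passed for TgR against FVB/N and 0.601% for TgS against FVB/N. At an unadjusted p under 0.05, limma gave 5 of 10 genes for TgR against FVB/N, where 1081 of 22626 probe sets passed. For TgS against FVB/N it gave 6 of 10, where 1353 of 22626 did. The TgR response of Hspa1b differed from that of FVB/N by -0.89 ± 0.19 (adjusted p = 0.065, and 0.028 without the 6 early naive arrays), and that of Hspa1a by -1.53 ± 0.38 (adjusted p = 0.17). The TgS response differed from that of FVB/N by -1.29 ± 0.34 for Hspa1a (adjusted p = 0.12) and by -0.56 ± 0.17 for Hspa1b (adjusted p = 0.23). The TgR value rests on 1 MPTP array, whose spread was taken from the other groups.

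The FVB/N calls did not all hold when 1 of the 4 arrays was left out, which leaves 1 array in a group. Without the second MPTP array none of the 4 genes passed, while the differences stayed at 1.47 for Hspa1a (adjusted p = 0.12), 0.84 for Hspa1b (adjusted p = 0.063), 0.43 for Hspa5 (adjusted p = 0.39) and 1.19 for Hspb1 (adjusted p = 0.12). Without the naive array whose labels disagree, Hspa1b still rose by 0.80 (adjusted p = 0.028), while Hspa1a differed by 1.16 (adjusted p = 0.088), Hspa5 by 0.39 (adjusted p = 0.30) and Hspb1 by 1.12 (adjusted p = 0.11), and Hspa1a over the 3 strains differed by 0.48 (adjusted p = 0.15). Without the other naive array, or without the first MPTP array, Hspa1a and Hspa1b were called and Hspa5 and Hspb1 were not.

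Markers of other cell types also moved in FVB/N caudate-putamen, and some moved in the other strains too. Of 5 cortical neuron markers 2 fell (median -0.94), with array means of 7.41 to 8.02 after MPTP, against 8.36 to 8.82 naive. Of 7 microglia markers 2 rose, with array means of 9.40 to 9.64 after MPTP, against 9.0 to 9.11 naive. Choroid plexus markers had none called of 6, with array means of 6.76 to 8.59 after MPTP, against 7.89 to 8.85 naive. Thalamic markers had none called of 6 either, but their array means separated, at 7.75 to 7.91 after MPTP, against 7.57 naive. In TgS and TgR the thalamic means were lower after MPTP than naive. The actin 5′ minus 3′ difference was -1.22 to -1.18 after MPTP, against -1.41 to -1.26 naive. Their part in the result was not tested.

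**Figure D2:**
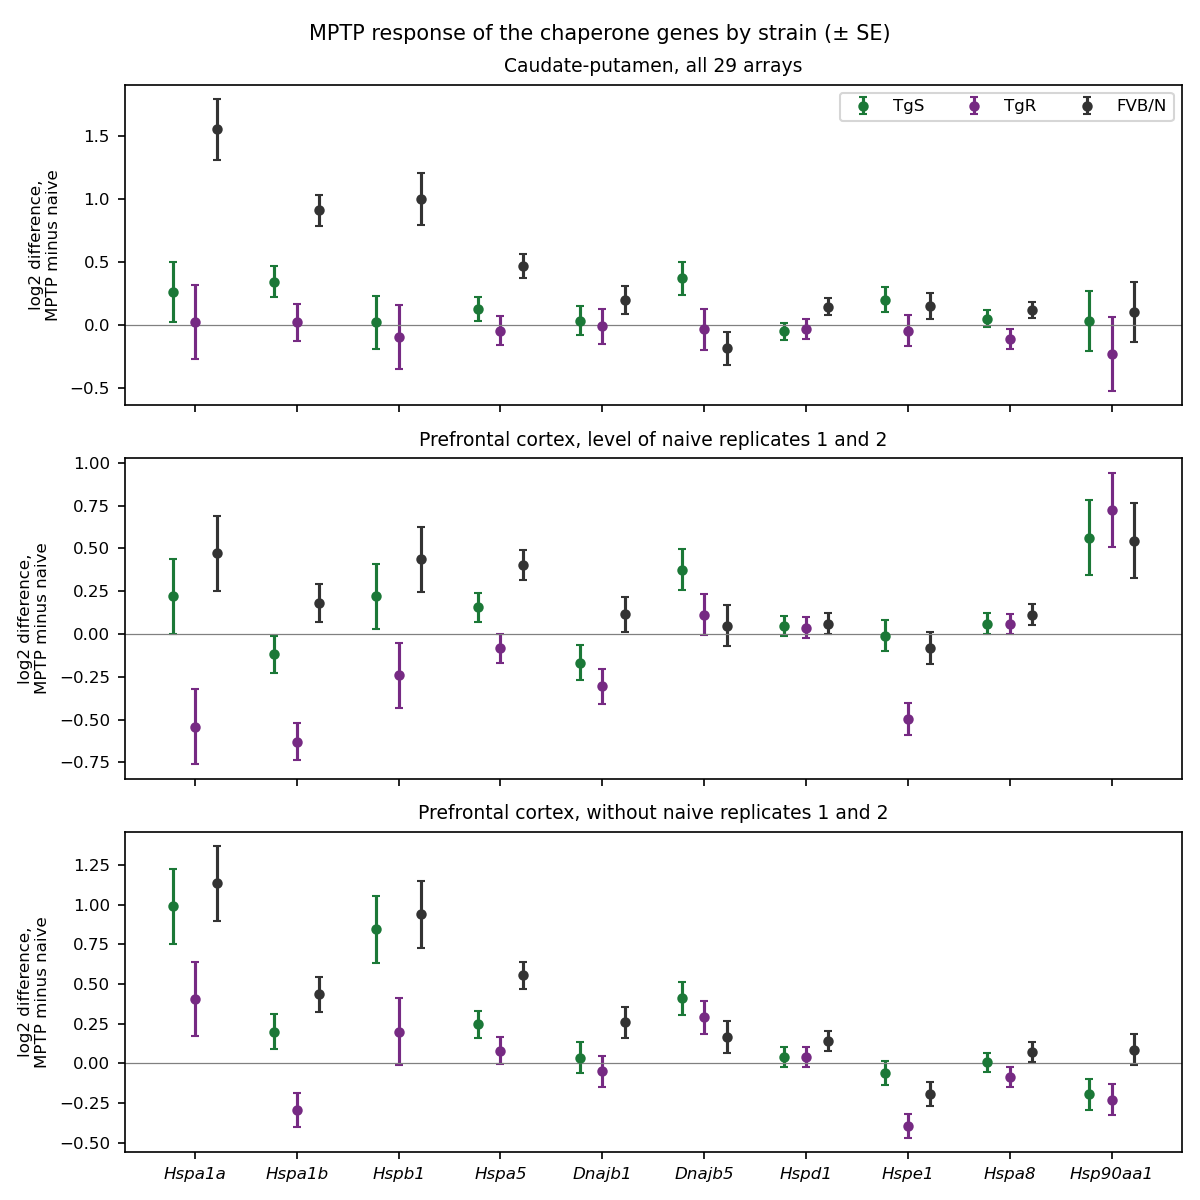
Difference of MPTP minus naive arrays (log2, points, with bars of 1 SE) for the 10 genes in TgS, TgR and FVB/N, in the caudate-putamen, in the prefrontal cortex at the level of the early naive arrays, and in the prefrontal cortex without those 6 arrays. In the caudate-putamen FVB/N reaches 1.55 for Hspa1a and 0.91 for Hspa1b, and TgR stays at 0.02 for both.

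Set against each other after MPTP, the strains differed in the same genes, and these comparisons share the FVB/N MPTP arrays with the response above. In the caudate-putamen 4 of 10 genes were lower in TgR than in FVB/N, where 1.04% of all probe sets differed. TgR is 1 array here, so the p-values take its spread from the other groups and say nothing of the spread among TgR samples. Hspa1a was 4.35-fold lower in TgR (-2.12 ± 0.29, adjusted p = 0.0011), Hspa1b 2.35-fold lower (-1.24 ± 0.15, adjusted p = 0.00031) and Hspa5 1.72-fold lower (-0.78 ± 0.11, adjusted p = 0.0013). Hspa8, the constitutive cytosolic Hsp70, was 1.29-fold lower (-0.37 ± 0.08, adjusted p = 0.028). Hspb1 differed by -1.01 ± 0.26 (adjusted p = 0.067) and Dnajb5 by -0.49 ± 0.16 (adjusted p = 0.19), and both passed without the 6 early naive arrays, as 6 of 10 genes then did (3.73% of all probe sets). The TgR array lay below both FVB/N arrays for all 10 genes, and the median difference was -0.46, against 0.00 over all probe sets. The share of all probe sets that lay below both FVB/N arrays was not counted. Hspa1b and Hspa5 were called in 38 of 38 settings, the main fit among them, Hspa1a in 37 and Hspa8 in 32. The Hspa8 call was lost without either FVB/N MPTP array (adjusted p = 0.084 and 0.17). Thalamic markers, 1 of 6 lower, had an array mean of 6.89 in TgR, against 7.75 to 7.91 in FVB/N. Choroid plexus markers, 1 of 6 lower, had 7.08, against 6.76 to 8.59. Cortical neuron markers had 8.42 in TgR, against 7.41 to 8.02 in FVB/N. The part of these markers in the result was not tested.

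The TgS mice also had a lower Hsp70 signal than FVB/N mice in the caudate-putamen after MPTP. Hspa1a was 2.10-fold lower (-1.07 ± 0.24, adjusted p = 0.043) and Hspa1b 1.53-fold lower (-0.61 ± 0.12, adjusted p = 0.017), which is 2 of 10 genes, against 0.694% of all probe sets. Both belong to the pair whose signals may be shared. Neither call held without any 1 of the 4 arrays compared, and over 39 settings, the main fit among them, Hspa1a was called in 22 and Hspa1b in 34. Cortical neuron markers had array means of 8.42 to 8.58 in TgS, against 7.41 to 8.02 in FVB/N. Thalamic markers had 7.48 to 7.58 in TgS, against 7.75 to 7.91 in FVB/N. The part of these markers in the result was not tested. For TgS against TgR in the caudate-putamen after MPTP, the median difference of the 10 genes was 0.43, against -0.01 over all probe sets. Both TgS arrays lay above the single TgR array for all 10 genes in that region. The share of all probe sets that did so was not counted. By the test 2 of 10 passed (1.07% of all probe sets): Hspa1b by 0.62 ± 0.15 (adjusted p = 0.045) and Hspa5 by 0.48 ± 0.11 (adjusted p = 0.047). These calls lay near the threshold: Hspa1b was called in 18 and Hspa5 in 13 of 38 settings, the main fit among them. Of the 28 that left out 1 array, 17 and 23 lost them. No gene of the 10 passed without the set term, and without the 6 early naive arrays 6 of 10 did, with 4.24% of all probe sets.

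In the prefrontal cortex after MPTP, the 2 TgR arrays lay below the 2 FVB/N arrays for all 10 genes. The median difference was -0.375, against 0.00 over all probe sets. The share of all probe sets that separated in this way was not counted. Hspa1b was at 9.76 and 10.02 in TgR, against 10.64 and 10.46 in FVB/N, and Hspa5 was at 11.50 and 11.58 in TgR, against 12.14 and 12.28 in FVB/N. Hspa1b was 1.58-fold lower (-0.66 ± 0.12, adjusted p = 0.020) and Hspa5 1.59-fold lower (-0.67 ± 0.09, adjusted p = 0.0013). These 2 of 10 genes compare with 0.212% of all probe sets. Hspb1 was at 9.16 and 9.34 in TgR, against 10.38 and 9.82 in FVB/N, a difference of -0.85 ± 0.21 that did not pass (adjusted p = 0.13), and Hspa1a differed by -0.85 ± 0.24 (adjusted p = 0.20). Without the first TgR MPTP array the differences were -0.53 for Hspa1b (adjusted p = 0.41) and -0.63 for Hspa5 (adjusted p = 0.056), and without the first FVB/N MPTP array Hspa1b was not called either (-0.57, adjusted p = 0.41). TgS minus FVB/N was -0.38 ± 0.12 for Hspa1b (adjusted p = 0.37), and 0 of 10 genes passed in that comparison (0.362% of all probe sets). At an unadjusted p under 0.05 limma gave 2 of 10 there, against 1288 of 22626 probe sets. TgS stood above TgR for Hspa5 by 0.53 ± 0.09 (adjusted p = 0.0051) and for Dnajb5 by 0.56 ± 0.13 (adjusted p = 0.039), 2 of 10 genes against 1.14% of all probe sets. Dnajb5 was lost without any 1 of the 4 arrays compared (adjusted p = 0.090 to 0.43), and Hspa5 without the first TgR array (adjusted p = 0.11) or the second TgS array (adjusted p = 0.094).

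Other genes of the ER protein-folding machinery were lower in TgR together with Hspa5. Of 23 ER chaperone and unfolded protein response genes besides the 10, 8 were lower in TgR than in FVB/N in the caudate-putamen after MPTP and none higher (median -0.30, against 0.00 over all probe sets, of which 1.04% were called). Calr, an ER lectin chaperone, differed by -0.58 ± 0.09 (adjusted p = 0.0012), Xbp1, a transcription factor of the response, by -0.49 ± 0.08 (adjusted p = 0.0040), Sdf2l1, an ER co-chaperone of Hspa5, by -0.99 ± 0.18 (adjusted p = 0.0075), and Manf, a secreted ER stress protein, by -0.61 ± 0.12 (adjusted p = 0.010). In the prefrontal cortex 7 of the 23 were lower and none higher (median -0.30, against 0.00 over all probe sets, of which 0.212% were called), led by Manf (-0.77 ± 0.09, adjusted p = 0.00050), Sdf2l1 (-1.09 ± 0.15) and the disulfide isomerase gene Pdia6 (-0.68 ± 0.09). In the FVB/N caudate-putamen response 3 of the 23 rose (median 0.22, against 0.01 over all probe sets, of which 0.265% were called): Xbp1 by 0.37 ± 0.07, Sdf2l1 by 0.75 ± 0.15 and Manf by 0.47 ± 0.09. The TgS response called 1 of 23, the ER stress sensor Atf6 (0.47 ± 0.09, adjusted p = 0.0091), against 1.41% of all probe sets, and the TgR response called none, against 0.11%.

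Cytosolic chaperones linked to HSF1 were looked at in the same comparisons. Of 20 measured of a list of 23, which does not hold the 10 genes, none was called in the FVB/N caudate-putamen response (median 0.13), and 1, the Hsp110 gene Hsph1, rose over the 3 strains (0.23 ± 0.06, adjusted p = 0.044), against 1.43% of all probe sets. In TgR against FVB/N caudate-putamen after MPTP 3 were lower (median -0.30, against 0.00 over all probe sets, of which 1.04% were called): the co-chaperone gene Bag3 at -0.48 ± 0.10, the Hsp70-Hsp90 adaptor gene Stip1 at -0.56 ± 0.13 and Hspa4l, of the Hsp110 family, at -0.51 ± 0.12. In TgR against FVB/N prefrontal cortex none of the 20 was called, and 4 were lower without the 6 early naive arrays, against 1.04% of all probe sets. Of the Hsp70 and Hsp90 co-chaperones (19 measured of 22), the mitochondrial chaperones and proteases (13 of 14), the TRiC chaperonin and prefoldin genes (12 of 13) and the immediate early genes (21 of 22), none was called in the FVB/N caudate-putamen response or in TgR against FVB/N after MPTP in either region.

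Glucocorticoid-induced genes rose in the same tissue. Of 13 on the list, 6 rose in FVB/N caudate-putamen after MPTP (median 0.85, against 0.01 over all probe sets, of which 0.265% were called), among them the kinase gene Sgk1 (1.01 ± 0.14, adjusted p = 0.0029) and Fkbp5, a co-chaperone of Hsp90 (0.85 ± 0.15, adjusted p = 0.013). In TgS caudate-putamen 4 rose, with Fkbp5 at 0.60 ± 0.15 (adjusted p = 0.044), against 1.41% of all probe sets, and in TgR none was called, against 0.11%. In TgR against FVB/N after MPTP, 2 of 13 were lower in the caudate-putamen (1.04% of all probe sets), Fkbp5 (-0.78 ± 0.18, adjusted p = 0.037) and Zbtb16 (-1.12 ± 0.26, adjusted p = 0.041), and 1 in the prefrontal cortex (0.212%), Fkbp5 (-0.88 ± 0.15, adjusted p = 0.0086). Their part in the chaperone differences was not tested.

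The prefrontal MPTP response of the 10 genes depended on which naive arrays it was set against. At the early level 3 genes rose and 2 fell over the 3 strains, against 60.9% of all probe sets, and without the 6 early naive arrays 4 rose and 1 fell, against 50.5%, so neither count stands above the rest of the transcriptome. Hspa1a was at 8.20 and 7.41 in TgS, 7.34 and 7.23 in TgR and 8.32 and 7.95 in FVB/N after MPTP. On naive replicates 3 and 4 it was at 6.87 and 6.76 in TgS, 6.91 and 6.85 in TgR and 7.11 and 6.89 in FVB/N, below all MPTP arrays. On naive replicates 1 and 2 it was at 7.64 and 7.48, 7.82 and 8.14, and 7.52 and 7.55 in these strains, within the range of the MPTP arrays. Its MPTP difference was 0.05 ± 0.14 (adjusted p = 0.77) at the early level, 0.84 ± 0.14 (adjusted p = 8.4e-05) without the early arrays and 0.45 (adjusted p = 0.077) against all 12 naive arrays with no set term. Hspb1 moved likewise, at 0.14 ± 0.12 (adjusted p = 0.33) at the early level and 0.66 ± 0.12 (adjusted p = 0.00031) without them.

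Hspa1b changed sign between these settings. It fell by 0.19 ± 0.07 on the log2 scale at the early level (adjusted p = 0.025), and differed by 0.11 ± 0.06 without the 6 (adjusted p = 0.15) and by -0.04 with no set term (adjusted p = 0.75). In TgR Hspa1b was at 9.76 and 10.02 after MPTP, against 10.37, 10.73, 10.15 and 10.22 on the 4 naive arrays, with no overlap. The TgR difference was -0.63 ± 0.11 (adjusted p = 0.00026), and -0.30 ± 0.11 without the 6 (adjusted p = 0.062). The other Hspa1b probe sets did not separate in TgR prefrontal cortex. Their means were 8.96 after MPTP against 8.855 naive, and 9.555 against 9.5725. In FVB/N prefrontal cortex Hspa1b was at 10.64 and 10.46 after MPTP, against 10.32, 10.32, 10.13 and 10.10 naive, above all of them, with differences of 0.18 ± 0.11 (adjusted p = 0.23) and 0.43 ± 0.11 (adjusted p = 0.011) without the 6. The TgR and FVB/N responses of Hspa1b in the prefrontal cortex differed by -0.81 ± 0.15 (adjusted p = 0.067). That comparison called 0 of 10 genes and 0.00442% of all probe sets. At an unadjusted p under 0.05 limma gave 6 of 10 there, against 1866 of 22626 probe sets.

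Hspa5 kept its direction in FVB/N prefrontal cortex. It was at 12.14 and 12.28 after MPTP, against 11.87, 11.78, 11.55 and 11.76 naive, and the groups did not overlap. The rise was 0.40 ± 0.09 (adjusted p = 0.0023) and 0.56 ± 0.09 without the 6 arrays (adjusted p = 0.00054). It was the only 1 of the 10 genes to rise in FVB/N at the early level, where 25.5% of all probe sets changed; 4 rose without the 6, where 18.9% did. The TgS difference was 0.15 ± 0.09 (adjusted p = 0.15) and the TgR difference -0.08 ± 0.09 (adjusted p = 0.44). Of the 23 other ER genes 9 rose and 1 fell in FVB/N prefrontal cortex, and 16 rose without the 6, against these same shares of all probe sets.

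Dnajb1 and Dnajb5 encode J-domain proteins (Hsp40) that deliver clients to Hsp70 and start its ATP cycle. Dnajb5 was at 11.27 and 11.22 in TgS prefrontal cortex after MPTP, against 10.95, 10.64, 10.82 and 10.85 naive, above all of them. It rose by 0.38 ± 0.12 (adjusted p = 0.019; 0.41 without the 6), where 40.6% of all probe sets changed and 2 of 10 genes rose. In TgS caudate-putamen Dnajb5 was at 10.51 and 10.47 after MPTP, against 10.06 and 10.18 naive, again without overlap, but the difference of 0.37 ± 0.13 did not pass (adjusted p = 0.23). The strains also differed when naive. Dnajb5 was at 10.45, 10.82, 10.32 and 10.46 in naive TgR prefrontal cortex, against 10.90, 11.04, 10.84 and 10.85 in FVB/N, and every TgR array lay below every FVB/N array.

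That difference was -0.40 ± 0.09 (adjusted p = 0.039), the only call among the 10 genes where 2.26% of all probe sets differed. It was -0.46 ± 0.10 without the 6 arrays (adjusted p = 0.19), and both other Dnajb5 probe sets were lower with all arrays. In the naive caudate-putamen Dnajb5 was at 10.06 and 10.18 in TgS and 9.93 and 10.02 in TgR, against 10.70 and 10.53 in FVB/N, with FVB/N above both. The TgR difference of -0.64 ± 0.13 had an adjusted p of 0.20 (0.012 without the 6), and the TgS difference of -0.49 ± 0.13 had 0.057 (0.0058 without the 6). With all arrays 0 of 10 genes passed in either comparison, where 0% and 2.19% of all probe sets did. At an unadjusted p under 0.05 limma gave 5 and 2, against 1066 and 3220 of 22626 probe sets. In TgS against TgR naive caudate-putamen 0 of 10 passed as well, where 0.773% of all probe sets did. At an unadjusted p under 0.05 limma gave 6 there, against 1980 of 22626 probe sets. Naive TgS prefrontal cortex had more Dnajb5 (0.30 ± 0.09), Hspa5 (0.29 ± 0.07) and Hspa8 (0.21 ± 0.05) than naive TgR, 3 of 10 genes where 18.6% of all probe sets differed. Between naive TgS and FVB/N prefrontal cortex 0 of 10 differed, where 10.9% did. At an unadjusted p under 0.05 limma gave 1 of 10 there, against 5919 of 22626 probe sets.

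Dnajb1 was steadier. After MPTP it was at 11.22 and 11.02 in TgS, 10.75 and 10.91 in TgR and 11.25 and 11.25 in FVB/N prefrontal cortex, and naive arrays there ran between 10.88 and 11.40. Its only MPTP call was a fall of 0.31 ± 0.10 on the log2 scale in TgR (adjusted p = 0.023), which was -0.05 ± 0.10 without the 6 arrays. The second Dnajb1 probe set disagreed: over the 3 strains it rose by 0.64 in the prefrontal cortex (adjusted p = 8.4e-05), where the brighter one differed by -0.12 ± 0.07, and the residuals of the pair correlated at -0.12.

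Hspd1 and Hspe1 form the folding chamber of the mitochondrial matrix and its lid. Hspe1 was lower in TgR prefrontal cortex after MPTP, at 10.82 and 10.90, against 11.42, 11.54, 11.20 and 11.31 naive, with no overlap. The fall was 0.50 ± 0.09 on the log2 scale (adjusted p = 0.00045) and 0.40 ± 0.08 without the 6 arrays (adjusted p = 0.0019), and there it was the only 1 of the 10 genes called (22.5% of all probe sets). At the early level 1 gene rose and 3 fell in TgR, where 43.7% of all probe sets changed. TgS had 11.32 and 11.17 after MPTP, against 11.26, 11.19, 11.34 and 11.27 naive, and FVB/N had 11.02 and 11.02 after MPTP, against 11.00, 11.02, 11.25 and 11.18 naive, both overlapping. Hspe1 did not change in any strain's caudate-putamen by the test, with differences of 0.20 ± 0.10 in TgS, -0.04 ± 0.12 in TgR and 0.15 ± 0.10 in FVB/N.

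Hspd1 varied little. Its 29 arrays lay between 11.47 and 11.89, and no MPTP difference passed, the largest being 0.14 ± 0.07 in FVB/N caudate-putamen (adjusted p = 0.77). Of the TRiC and prefoldin genes, the cytosolic counterpart of this chamber, 10 of 12 fell over the 3 strains in the prefrontal cortex after MPTP, where 60.9% of all probe sets were called (median -0.26, against -0.08 over all probe sets), and 8 fell without the 6 arrays, where 50.5% were.

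Hspa8 and Hsp90aa1, the abundant cytosolic chaperones, showed small differences or none that held by their brightest probe sets. For Hspa8 this lay between 12.82 and 13.23 on all arrays, while its other probe sets had ranges of 0.50, 1.25 and 2.34. In the prefrontal cortex of all 3 strains, those with 0.50 and 1.25 had lower means after MPTP than naive. The probe set with 2.34 had higher means. In the caudate-putamen after MPTP the brightest Hspa8 probe set was at 13.17 and 13.12 in TgS and 12.84 in TgR, against 13.19 and 13.23 in FVB/N. The TgR array was the lowest of the region. Hsp90aa1 was at 12.82 and 13.01 in TgS, 12.77 and 12.65 in TgR and 12.91 and 12.92 in FVB/N prefrontal cortex after MPTP. On naive replicates 1 and 2 it was at 12.15 and 12.49 in TgS, 12.20 and 11.31 in TgR and 12.65 and 12.62 in FVB/N, below every prefrontal MPTP array of the same strain. On naive replicates 3 and 4 it was at 13.11 and 13.11, 13.02 and 12.86, and 12.66 and 13.00 in these strains. The MPTP difference was 0.61 ± 0.14 at the early level (adjusted p = 0.00097), 0.25 with no set term (adjusted p = 0.30) and -0.11 ± 0.06 without the 6 (adjusted p = 0.11).

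Hsp90aa1 probe sets disagreed most on the early TgR arrays. There 1 of its 3 probe sets read 10.37 and 8.14 and another 12.47 and 12.74, beside actin 5′ minus 3′ differences of -1.30 and -2.30, the lowest being on the array with 8.14. The part of RNA integrity in this was not tested. Agreement of probe sets over all arrays was taken as the correlation of their residuals from the group means and set term. It was 0.88 for the pair of Hspb1 and 0.32 to 0.90 for those of Hspa1b. It ranged from -0.42 to 0.83 for Hsp90aa1, from -0.24 to 0.73 for Dnajb5 and from -0.19 to 0.50 for Hspa8.

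**Figure D3:**
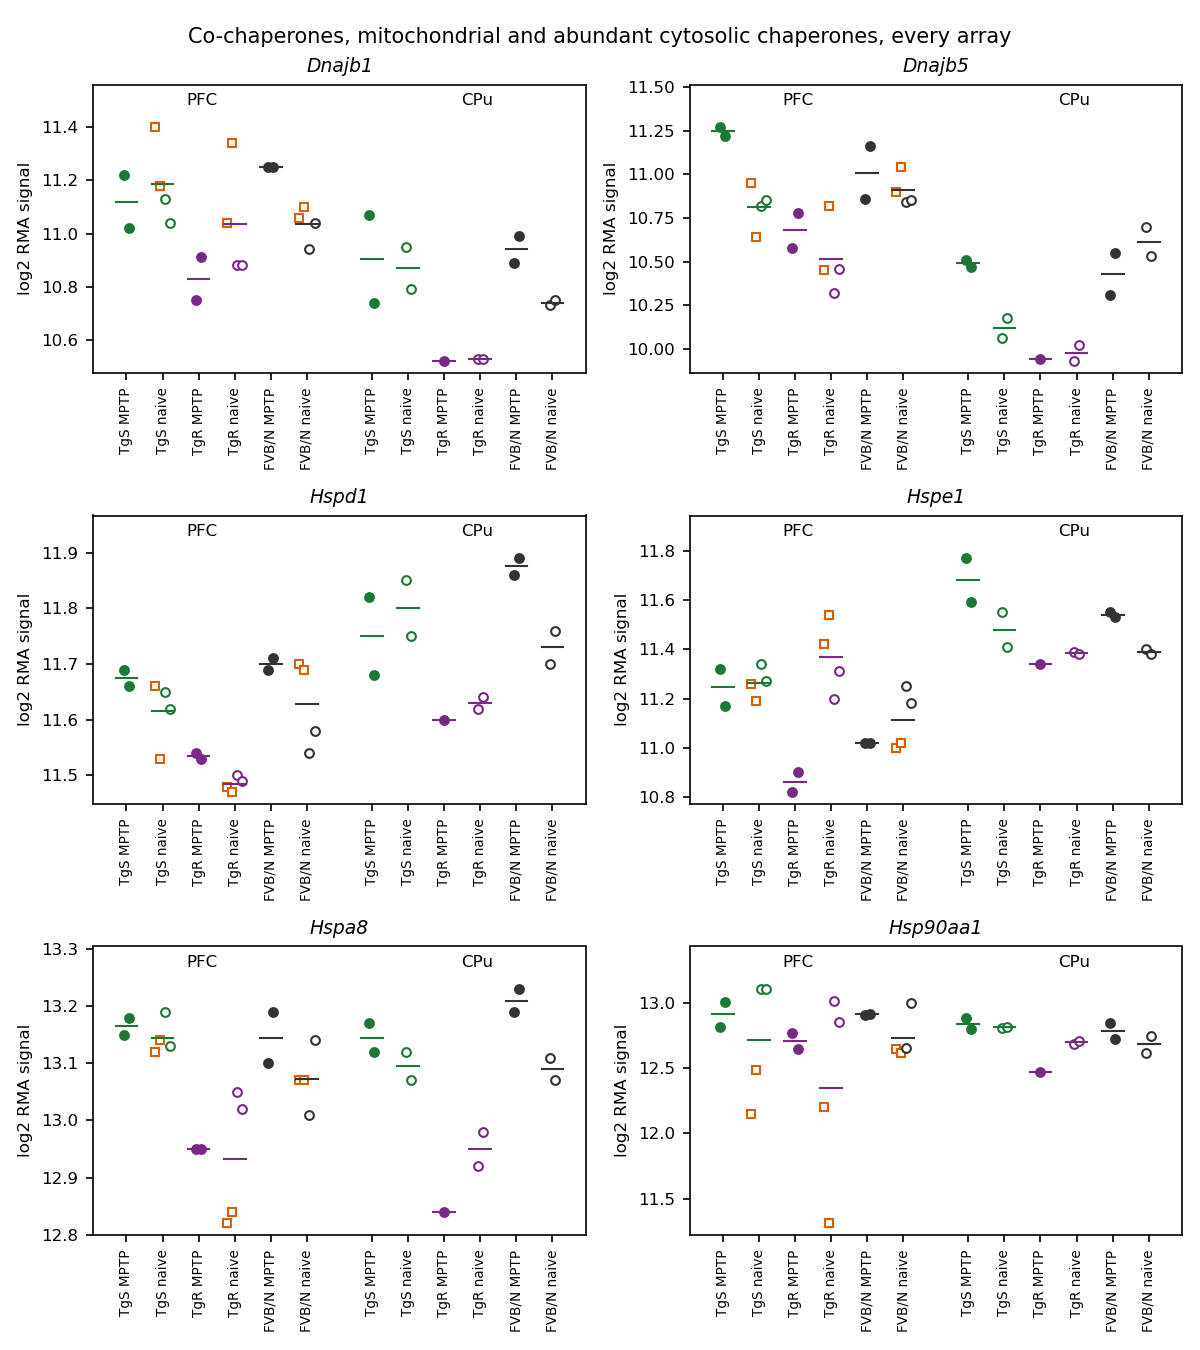
Log2 signal of Dnajb1, Dnajb5, Hspd1, Hspe1, Hspa8 and Hsp90aa1 on every array, by region, strain and treatment; symbols are as in the plot of the induced genes. Hsp90aa1 falls to 11.31 on an early naive TgR array, and Hspe1 is lowest in TgR prefrontal cortex after MPTP, at 10.82 and 10.90.

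The regions differed in most of these genes, as in most of the transcriptome. At the early level 4 genes were higher and 3 lower in naive prefrontal cortex than in naive caudate-putamen, where 60.1% of all probe sets differed. After MPTP 3 were higher and 2 lower, where 43.0% did. Hspa1b was at 9.94 to 10.73 (median 10.23) on the 12 naive prefrontal arrays, against 9.12 to 9.63 (median 9.36) on the 6 of the caudate-putamen, without overlap. The 12 arrays averaged 10.24, against 9.38, a difference of 0.86 with no set term (adjusted p = 1.0e-07). It was 1.01 ± 0.07 at the early level (adjusted p = 3.9e-10) and 0.70 ± 0.06 without the 6 arrays, so the size but not the call depended on the naive arrays used. After MPTP it was higher by 0.39 ± 0.07 (adjusted p = 0.00025). Dnajb5 was higher in the prefrontal cortex by 0.56 ± 0.08 in naive mice and 0.69 ± 0.08 after MPTP, and Dnajb1 by 0.47 ± 0.07 and 0.28 ± 0.07. Hspe1 was lower there, with differences of -0.18 ± 0.06 in naive mice and -0.48 ± 0.06 after MPTP, and after MPTP all 6 prefrontal arrays lay below all 5 of the caudate-putamen. Hspd1 was lower too, with differences of -0.13 ± 0.04 and -0.10 ± 0.04. Hspa1a differed by 0.91 ± 0.14 in naive mice at the early level, by 0.51 over all 12 arrays with no set term (adjusted p = 0.044) and by 0.11 ± 0.14 without the 6 (adjusted p = 0.51). Hsp90aa1 differed in sign, at -0.50 ± 0.14 at the early level, -0.14 with no set term (adjusted p = 0.58) and 0.23 ± 0.06 without the 6. The MPTP response over the strains differed between the regions in 4 of 10 genes, near the 43.3% of all probe sets.

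In the order of group means, Hspa1a, Hspa5, Hspa8, Hspd1 and Hspb1 were highest in FVB/N caudate-putamen after MPTP and Hspa1b and Dnajb1 in FVB/N prefrontal cortex after MPTP. The Hspa8 step was small, at 13.21 against 13.165 in TgS prefrontal cortex after MPTP. All other Hspa8 probe sets were highest in a naive TgS group. For Hspa5 the next group was FVB/N prefrontal cortex after MPTP, at 12.21 ± 0.10 against 12.41 ± 0.06 (SD, n = 2 each), and the TgS MPTP groups came next. For Hspb1 the first 2 groups, 10.14 ± 0.27 and 10.10 ± 0.40, did not differ beyond their spread. The single TgR caudate-putamen array after MPTP was last of the 12 groups for Hspb1, Hspa8, Dnajb1 and Dnajb5, and naive TgR caudate-putamen was last for Hspa1a and Hspa1b. This holds for the brightest probe sets, and the other probe sets of Hspb1, Hspa8 and Dnajb5 put other groups last.

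Within groups, the 10 genes did not vary as a block. Over the 29 arrays, Pearson correlations of residuals from the group means and set term ran from -0.74 (Hspe1 with Hsp90aa1) to 0.73 (Hspe1 with Dnajb1). Their median was 0.18 over 45 pairs. Hspa1a and Hspa1b correlated at 0.63, and at 0.63 without the 6 arrays. Dnajb5 and Hspa5 were at 0.70 and 0.60, and Hspa5 and Hspa8 at 0.33 and 0.86. The common shift between the sets is removed from the residuals of all 29 arrays, but arrays may still share RNA quality. Of the 29 arrays, 28 have a residual that is not fixed at 0. The genes with the residuals most like a member's were Aars (0.82), Tmem151b and Arpc5l for Hspa1a, Gm30058 (0.82), Hsd11b2 and Obi1 for Hspa1b, Adam25 (0.75), Psmd9 and Pdia4 for Hspb1, Fam220a (0.79), Cry1 and Glyr1 for Hspa5, Khk (0.88), Creld2 and Aen for Dnajb1, and Stx6 (0.92), Lrrtm1 and Galnt7 for Dnajb5. They were Stx8 (0.91), Chchd1 and Svbp for Hspe1, Slc25a44 (0.88), Alad and Chrm4 for Hspd1, Leprotl1 (0.84), Sema3c and Aida for Hspa8, and Ppp3cb, Trim35 and Ralgapa1 for Hsp90aa1, each of these last at 0.97.

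**Figure D4:**
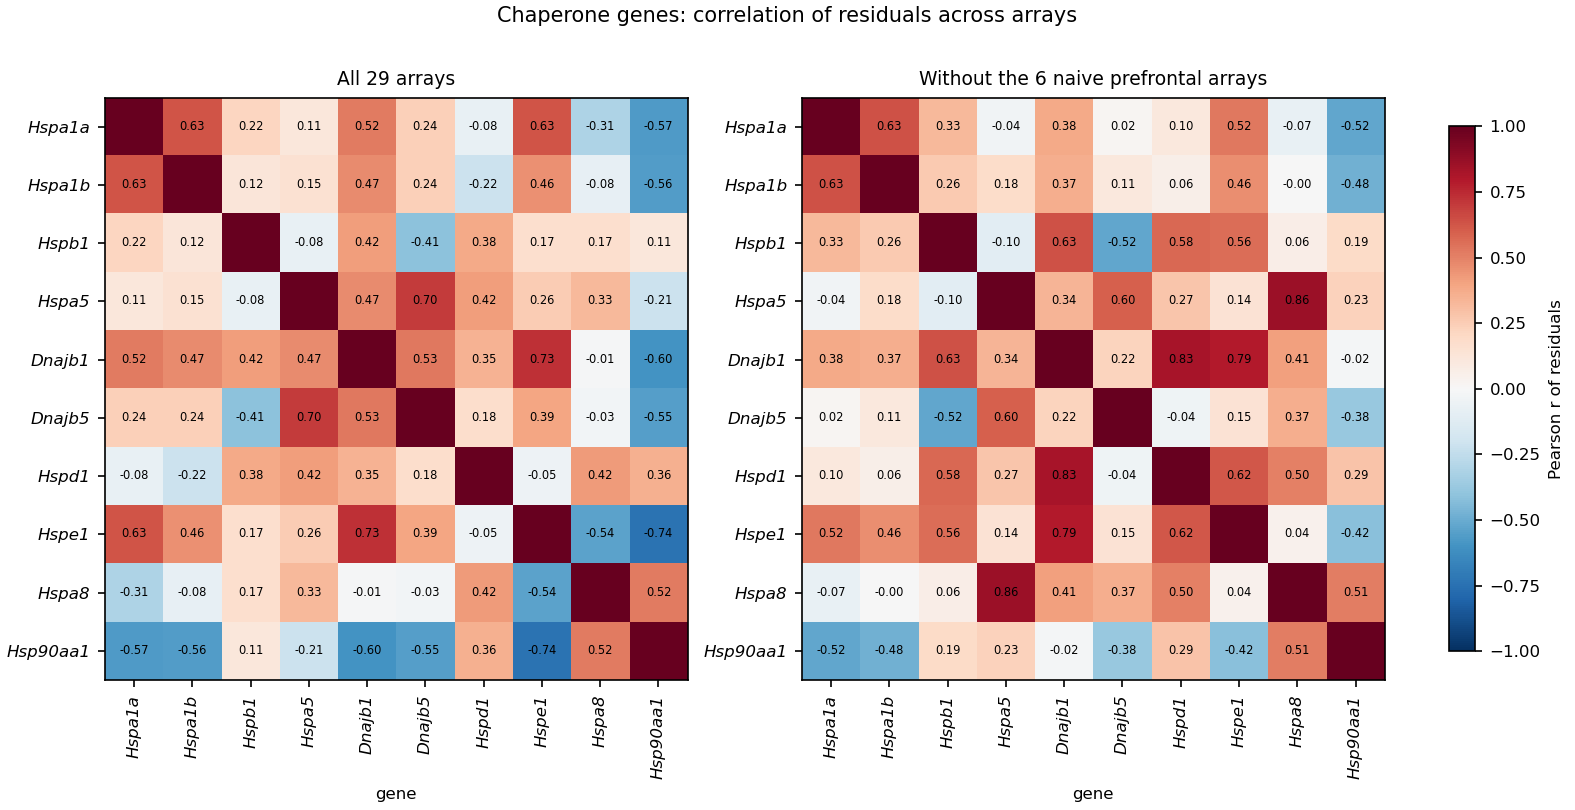
Pearson correlation of the residuals of the fitted model for each pair of the 10 genes, over all 29 arrays and without the 6 early naive arrays. Colour gives the correlation. With all arrays the pairs run from -0.74 to 0.73, and Hspa1a with Hspa1b is at 0.63 in both panels.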

How the data were processed

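RNA of 29 tissue samples was hybridised to Affymetrix mouse expression arrays. The deposited values are log2 signals per probe set, made by the authors with RMA in Affymetrix Power Tools and Affymetrix Expression Console, per the submitters' processing notes, with versions and settings not stated there. The array number limits the precision. Of 22690 probe sets, 64 controls were left out and 22626 tested, of which 20380 have 1 symbol, 691 several and 1555 none in the platform annotation. All columns of the table were used.

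A limma 3.58.1 model (R 4.3.3) was fitted to all probe sets with 12 group means and a term for the 2 sets of naive prefrontal arrays, which the source labels spell differently. It has 16 residual degrees of freedom, and 11 without the 6 early naive arrays. P-values were moderated with eBayes and adjusted by Benjamini-Hochberg over all probe sets within each of 22 comparisons and 7 interactions, with calls at an adjusted p under 0.05. The fit was tested on simulated data. No 2 arrays held identical values. The genes named are all 10 chaperone genes, up to 4 genes with the smallest p from each of 7 pathway lists, and the 3 genes with the most similar residuals. Genes and lists were chosen with earlier results of these data known. Marker lists are given as array means.

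Replicate numbers were not used to pair samples. They were compared across strains within a region and treatment, and pairing across regions was not tested. Same-numbered naive prefrontal deviations correlated at 0.194 to 0.607, and after the set term 1 of 12 pairs was over 0.1. Removing a shift common to the strains itself lowers these correlations, so they cannot decide whether the numbers pair the naive prefrontal arrays. Prefrontal MPTP pairs lay between -0.159 and -0.075, and naive caudate-putamen pairs between -0.350 and 0.154. Alternatives were no set term, a replicate block, each region alone, either set of naive prefrontal arrays left out, quantile normalization, the dimmest 0.25 of probe sets left out, a trended robust variance, the mean of a gene's probe sets, and each array left out in turn.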

Additional observations from a re-analysis of the deposited data

Results flagged for a closer look

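Hsp90aa1 read 13.00 on the fourth naive FVB/N prefrontal array, against 12.62 to 12.66 on the other 3 of its group. Its gap was 0.895 of the group's range, above Dixon's 95% critical value for 4 arrays. In 30 such groups chance alone flags about 1 in 20.

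The MPTP response over the 3 strains differed between the caudate-putamen and the prefrontal cortex by interaction terms of the limma fit, with naive prefrontal cortex at the level of replicates 1 and 2, where 43.3% of all probe sets did. The difference was 0.56 for Hspa1a (adjusted p = 0.033), 0.61 for Hspa1b (adjusted p = 0.00016), 0.30 for Hspe1 (adjusted p = 0.0098) and -0.64 for Hsp90aa1 (adjusted p = 0.017). Without the 6 early naive arrays it was 0.31 for Hspa1b (adjusted p = 0.018) and 0.32 for Hspe1 (adjusted p = 0.0017), while Hspa1a was at -0.23 (adjusted p = 0.40) and Hsp90aa1 at 0.08 (adjusted p = 0.48).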

How the results depend on the processing

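Counts are genes called of 10. Without the set term, calls were 0 for MPTP over the strains and for FVB/N alone in the caudate-putamen, 0 for TgS against FVB/N, 2 for TgR against FVB/N and 0 for TgS against TgR there after MPTP, 1 for TgR against FVB/N and 1 for TgS against TgR in the prefrontal cortex after MPTP, 0 for naive TgR against FVB/N there, 1 and 2 for the TgS and TgR prefrontal responses, and 2 for the difference between regions. Without the 6 early naive arrays they were 4 for the FVB/N, 4 for the TgS and 1 for the TgR prefrontal response, 0 for naive TgR against FVB/N in the prefrontal cortex, 1 each for naive TgS and naive TgR against FVB/N in the caudate-putamen, 6 for TgS against TgR there after MPTP, and 1 for the difference of the TgR and FVB/N responses there. Signs turned without these arrays for Hsp90aa1 between naive regions (0.23), in the prefrontal response over the strains (-0.11), in TgS (-0.20) and in TgR (-0.23), for Hspa1b in that response (0.11), and between the regions' responses for Hspa1a (-0.23) and Hsp90aa1 (0.082). Without naive prefrontal replicates 3 and 4, naive TgR against FVB/N gave 4 in the prefrontal cortex, naive TgS against FVB/N 1 in the caudate-putamen, and the response differences in the prefrontal cortex 4 for TgR against FVB/N and 1 for TgS against TgR. With the mean of a gene's probe sets, Hspa1b (0.013) and Dnajb1 (0.26) turned in the prefrontal response and Dnajb1 in that of TgR (0.12), and counts were 4 for the FVB/N response, 1 for the TgS response and 2 for naive TgR against FVB/N in the prefrontal cortex. Each region alone gave 1 for the TgS prefrontal response, 0 for naive TgR against FVB/N and 1 for TgS against TgR after MPTP in the prefrontal cortex, 2 for the FVB/N response and 1 for naive TgS against FVB/N in the caudate-putamen. Quantile normalization gave 1 for MPTP over the strains and 1 for naive TgS against FVB/N in the caudate-putamen and 1 for the TgS prefrontal response, and the trended variance 1 for each of the last 2. The causes were not tested.

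The replicate block, whose numbers are not known to pair the samples, gave 1 call for MPTP over the strains and 0 for TgS against TgR after MPTP in the caudate-putamen. It gave 1 for the TgS response and 0 for naive TgR against FVB/N in the prefrontal cortex. Calls lost under the block were Hspa5 in the FVB/N caudate-putamen response (adjusted p = 0.057), Hspa1a over the strains there (0.054), Hspa8 in TgR against FVB/N (0.062) and Hspa1b and Hspa5 in TgS against TgR (0.092 each) in the caudate-putamen after MPTP, Dnajb5 over the strains (0.051) and Hsp90aa1 in TgS (0.061) in the prefrontal response, Dnajb5 in naive TgR against FVB/N prefrontal cortex (0.060) and Hspd1 between regions after MPTP (0.069). No called gene changed sign.

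With each array left out in turn, calls ranged over 1 to 2 for MPTP over the strains and 0 to 4 for FVB/N alone in the caudate-putamen, 2 to 5 over the strains, 1 to 2 in FVB/N, 0 to 2 in TgS and 2 to 5 in TgR in the prefrontal cortex. After MPTP they ranged over 0 to 2 for TgR against FVB/N and 0 to 3 for TgS against TgR in the prefrontal cortex, and 0 to 2 for TgS against FVB/N and 0 to 3 for TgS against TgR in the caudate-putamen. Naive TgR against FVB/N gave 0 to 6 in the prefrontal cortex, 6 without the third FVB/N array, and naive TgS against FVB/N 0 to 1 in the caudate-putamen. The response differences of TgS and TgR from FVB/N in the caudate-putamen gave 0 to 1 each.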
